A study of Mus musculus with 6 samples.

Results

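The genes described here carry the injury signal of the axon through the dual leucine zipper kinase (DLK) and the Jun N-terminal kinases (JNK), or set whether a cut axon degenerates. They are 10 of the 17022 gene names in the table: the kinase gene Map3k12 (DLK), the JNK kinases Map2k4 and Map2k7, the JNK genes Mapk8, Mapk9 and Mapk10, the scaffold genes Mapk8ip1 and Mapk8ip3, and the Wallerian degeneration genes Nmnat2 and Sarm1. A row was taken when its gene name, freed of the number that marks an assembled isoform, was one of these 10, which gave 59 of 60744 isoforms. Levels are FPKM (fragments per kilobase of transcript, scaled to the mapped fragments of the library), so they are per length. A gene's level is the sum over its isoforms. Some isoforms are assembled fragments that cover only later exons of a gene. Among them, Map2k4 j2 of 2 exons held 23.1% of its gene, Mapk9 j5 of 3 exons 29.3% and Mapk8ip3 j4 of 15 exons 36.2%. Comparisons of level between genes carry that limit.

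The measured RNA was that of laser-microdissected neurons of frozen dorsal root ganglia at lumbar levels L3 to L5. The mice were C57Bl/6 males, which the labels call adult and give an age of 4 to 6 weeks. In the crush group the sciatic nerve had been crushed for 10 seconds, and in the sham group it had been exposed for 10 seconds without a crush; ganglia of the operated side were taken 7 days later. Each group had 3 libraries, and no animal carried a transgene in the labels. How many animals a library holds, and whether replicates are different animals, is not in the labels. The spread behind each p-value is therefore that of libraries and may be technical. A crush of the sciatic nerve does not reach every neuron of these ganglia, and the levels are averages over all neurons that were cut out.

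DLK is a mitogen-activated protein kinase kinase kinase of neurons. After axon injury it phosphorylates MKK4 and MKK7 (the products of Map2k4 and Map2k7), which in turn phosphorylate the JNKs, and JNK-interacting scaffold proteins hold the kinases together and link them to transport motors. The signal reaches the cell body and is known to be needed for much of the transcriptional response of sensory neurons to nerve injury. In the axon, NMNAT2 makes NAD and holds SARM1, an NAD-degrading enzyme, inactive. Loss of NMNAT2 from a cut axon releases SARM1 and starts Wallerian degeneration. Most of these steps are changes in protein activity or location, which RNA levels do not show.

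All libraries had high levels of neuronal genes, with 9 of 10 neuronal markers summing to 4853 to 6699 FPKM in sham and 5324 to 6189 FPKM in crush libraries. Most of this sum was Tubb3, Uchl1 and Prph. Rbfox3 was lower in every crush library, at 74.9, 85.4 and 72.02 FPKM in sham against 63.3, 66.2 and 62.3 FPKM. So was Isl1, at 42.4, 40.95 and 43.4 against 36.2, 34.1 and 35.3 FPKM. For the other neuronal markers the groups overlapped. Markers of other cells were also present: 9 of 10 macrophage markers summed to 41.0 to 51.3 FPKM in sham and 96.3 to 105 FPKM in crush libraries, 6 of 6 Schwann cell markers to 716 to 819 and 853 to 883 FPKM, 6 of 6 satellite glia markers to 851 to 1019 and 737 to 828 FPKM, 5 of 5 fibroblast markers to 103 to 138 and 159 to 168 FPKM, and 4 of 5 endothelial markers to 11.6 to 15.3 and 12.9 to 14.1 FPKM. No marker in these lists was at 0 throughout. The satellite glia markers did not move together: S100b, which Schwann cells also express, was at 355, 516 and 374 FPKM in sham and 295, 268 and 323 FPKM in crush libraries, and Glul at 99.03, 105 and 95.2 against 119, 115 and 125 FPKM. The part of these cells in the results below was not tested. Sham 2 stood apart from the other sham libraries (Pearson r across genes 0.978 with sham 1 and 0.981 with sham 3, against 0.996 between sham 1 and sham 3), so the estimates that it moves most are given with and without it. The depth of the libraries is unknown, because the table holds no counts.

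None of the 10 genes passed the test for a difference between crush and sham (limma on log2(FPKM + 1), adjusted p under 0.05 over all genes). Among all 12289 genes with a mean of at least 1 FPKM, which include all 10, 464 passed, or 3.78%. At an unadjusted p under 0.05 the set held 1 gene, Mapk10, against 17.6% of all genes tested. The median log2 change was -0.11 over the 10 genes and -0.02 over all genes tested, with 7 of the 10 estimates below 0. In 4 of the 10 (Map3k12, Map2k7, Mapk10 and Mapk8ip1) every crush library lay below every sham library, as did 14.1% of all genes tested, and in 1 (Sarm1) every crush library lay above, as did 12.2% of all. Together these 5 stand beside 26.3% of all genes tested whose groups did not overlap. In bulk RNA like this, fewer cells of a type and less RNA per cell cannot be told apart.

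**Figure D1:**
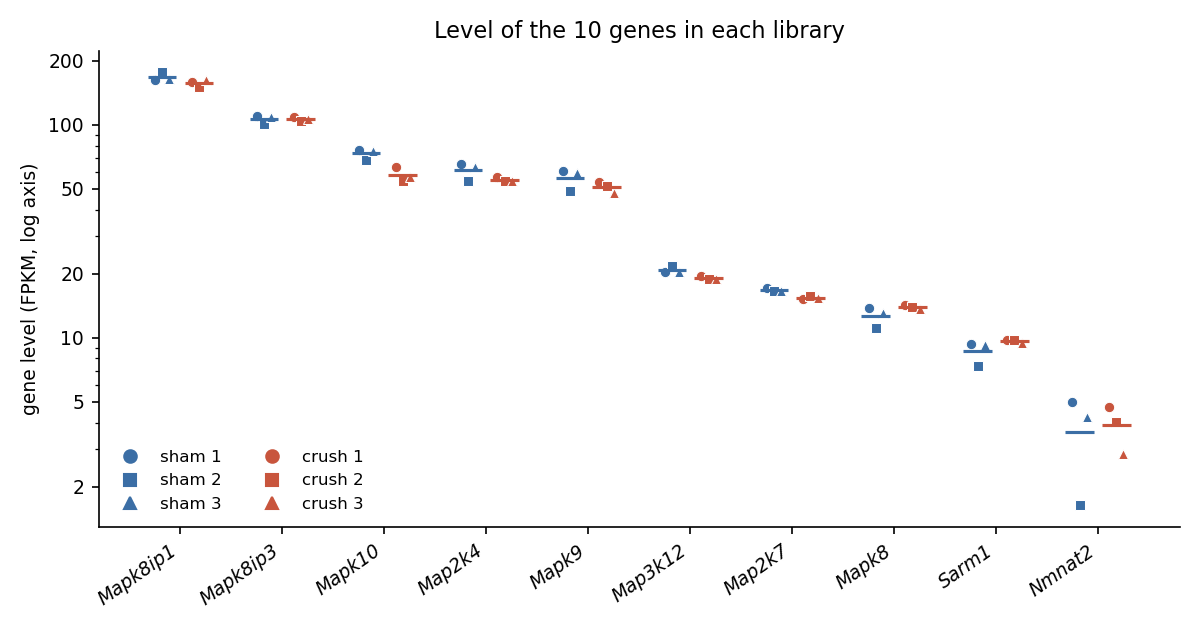
Level of each of the 10 genes in each library, in FPKM on a log axis, with genes ordered by their mean over the 6 libraries. Points are libraries (blue for sham, red for crush, with the shape giving the replicate number) and horizontal lines are group means. The order runs from Mapk8ip1 at 163 FPKM to Nmnat2 at 3.75 FPKM, and the widest gap between group means on this axis is that of Mapk10 (73.4 and 58.2 FPKM). Nmnat2 is counted under its own name only, which holds 11.9% of the summed level of its locus.

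By level the order was Mapk8ip1 (mean over the 6 libraries 163 FPKM), Mapk8ip3 (107), Mapk10 (65.8), Map2k4 (58.4), Mapk9 (53.8), Map3k12 (20.01), Map2k7 (16.1), Mapk8 (13.3), Sarm1 (9.16) and Nmnat2 (3.75). The ranges of Mapk10 and Map2k4 over the libraries overlapped, as did those of Map2k4 and Mapk9, so the levels of these 3 neighbours were not apart over all libraries. Within a library, Mapk10 lay above Map2k4 in 5 of 6 and Map2k4 above Mapk9 in 6 of 6. All other neighbours in the order had ranges that did not overlap. The place of Nmnat2 is that of its own name alone. With the isoforms named mKIAA0479 in the same locus, described below, the sum was 31.5 FPKM, above Map3k12 and Sarm1. The scaffolds were thus the most abundant members, and Mapk8ip1 stood at the 97.4th percentile of the genes tested. The kinase at the top of the cascade, Map3k12, stood at the 72.3rd percentile.

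Map3k12 (chr15:102323424-102348324, minus strand, mm9) was at 20.5, 21.8 and 20.3 FPKM in sham 1 to 3 and at 19.6, 19.0 and 18.8 FPKM in crush 1 to 3. The 3 crush values lay below the 3 sham values, by a small step: the group means were 20.9 ± 0.837 (SD, n = 3) and 19.1 ± 0.416 FPKM (SD, n = 3). The log2 change was -0.12 with an SE of 0.06 (95% interval -0.27 to 0.03, limma adjusted p = 0.379). Of its 6 isoforms, 3 assembled ones, j4, j3 and j2, held 41.1%, 34.1% and 16.1% of the level, and the isoforms matching the reference annotation together held the small remainder with 1 other. On the reference isoforms alone the estimate had the other sign (0.03, adjusted p = 0.976). A further point on the measurement is that 32.1% of the exon bases of Map3k12 are shared with Pcbp2 on the opposite strand (122 FPKM). The labels do not say that strand was kept, so reads there cannot be assigned to a strand. Such shares, here and below, are over the exon bases of all isoforms of a gene together. How much of the overlap falls in the abundant isoforms was not computed.

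By the stated measure of likeness, the genes whose log2(FPKM + 1) followed Map3k12 most closely over the 6 libraries were Fgf18 (Pearson r = 0.998), Vasp (0.997) and Ephx1 (0.995). All 3 were highest in sham 2 and lowest in crush 3, as Map3k12 was. These libraries are the same 6 for every gene, and 497 of the genes tested had an r above 0.9 with Map3k12, so the ranking among them is a description only.

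Map2k4 (chr11:65501689-65601835, minus strand, mm9), whose product MKK4 phosphorylates both JNK and p38 kinases, was at 65.8, 54.6 and 63.7 FPKM in sham and 57.2, 54.5 and 54.5 FPKM in crush libraries. The groups overlapped through sham 2. The log2 change was -0.14 (SE 0.09, 95% interval -0.34 to 0.06, limma adjusted p = 0.464). Without sham 2 it was -0.22 with an adjusted p of 0.0456, a fit in which 9.55% of all genes passed.

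Map2k7 (chr8:4238582-4252635, plus strand, mm9), whose product MKK7 is specific to JNK, was at 17.1, 16.6 and 16.5 FPKM in sham and 15.2, 15.7 and 15.3 FPKM in crush libraries. The crush libraries were all below the sham libraries, with a log2 change of -0.11 (SE 0.06, 95% interval -0.25 to 0.02, limma adjusted p = 0.373). Map2k4 was the more abundant of the JNK kinases in every library: its level over that of Map2k7 was 3.85, 3.29 and 3.86 in sham and 3.75, 3.48 and 3.56 in crush libraries. This ratio, which does not depend on how libraries are scaled, overlapped between the groups (difference of the log2 ratio of Map2k7 to Map2k4 0.02, 2-sided exact permutation p = 0.8). With 3 libraries against 3, the smallest p such a test can give is 0.1.

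Mapk10 (JNK3; chr5:103335200-103640512, minus strand, mm9), the JNK gene largely restricted to neurons, was at 76.1, 68.5 and 75.7 FPKM in sham and 63.2, 54.3 and 57.1 FPKM in crush libraries. Every crush value lay below the lowest sham value, and the group means were 73.4 ± 4.30 (SD, n = 3) and 58.2 ± 4.55 FPKM (SD, n = 3), so that the crush mean was 0.793 of the sham mean. The log2 change of -0.33 (SE 0.08, 95% interval -0.53 to -0.13) had a limma adjusted p of 0.0901 and did not pass. It passed with library quality weights (adjusted p = 0.0279, where 11.6% of all genes passed) and without sham 2 (0.0227). In crush 1 the authors' files mark the estimates of all 9 Mapk10 isoforms as failed. The quality weights gave this library the largest weight, 2.86. Without crush 1 the log2 change was -0.39 and did not pass (limma adjusted p = 0.155).

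Mapk9 (JNK2; chr11:49660053-49699679, plus strand, mm9), which is expressed in most tissues, was at 60.9, 48.8 and 59.3 FPKM in sham and 54.0, 51.7 and 47.8 FPKM in crush libraries. The groups overlapped (log2 change -0.13, SE 0.10, 95% interval -0.37 to 0.11, limma adjusted p = 0.575), and without sham 2 the estimate was -0.23 (adjusted p = 0.0731). The authors' files mark all 8 Mapk9 isoforms as failed in all 6 libraries and give them no interval, so every Mapk9 value carries that limit. Mapk8 (JNK1; chr14:34190800-34260378, minus strand, mm9), also widely expressed, was the least abundant JNK gene at 13.9, 11.1 and 13.1 FPKM in sham and 14.2, 13.9 and 13.6 FPKM in crush libraries (log2 change 0.13, SE 0.09, 95% interval -0.08 to 0.35, adjusted p = 0.527). Sham 2 was the lowest of the 6 for Mapk8, and without it the estimate was 0.042 (adjusted p = 0.691).

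Set against each other within a library, the JNK genes had a lower share of Mapk10 and a higher share of Mapk8 in the crush libraries. Mapk10 made up 50.4%, 53.4% and 51.1% of the summed JNK FPKM in sham and 48.1%, 45.3% and 48.2% in crush libraries. Mapk8 made up 9.19%, 8.62% and 8.87% in sham and 10.8%, 11.6% and 11.5% in crush libraries, and Mapk9 40.4%, 38.03% and 40.05% against 41.1%, 43.1% and 40.3%. The groups did not overlap for Mapk10 (difference -4.44 percentage points) or Mapk8 (2.42 points), each with the smallest p the design allows (2-sided exact permutation p = 0.1), while those of Mapk9 overlapped (2.02 points, exact p = 0.2). Neither of the first comparisons can pass 0.05 in this design. Mapk10 was 5.49, 6.19 and 5.76 times Mapk8 in sham and 4.44, 3.89 and 4.196 times Mapk8 in crush libraries, and sham 2, the lowest sham library for all 3 genes, had the highest ratio. The difference in the Mapk10 share was between -5.03 and -3.49 points when each library was left out in turn. The summed level of the JNK genes was 151, 128 and 148 FPKM in sham and 131, 120 and 119 FPKM in crush libraries, and overlapped between the groups.

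**Figure D2:**
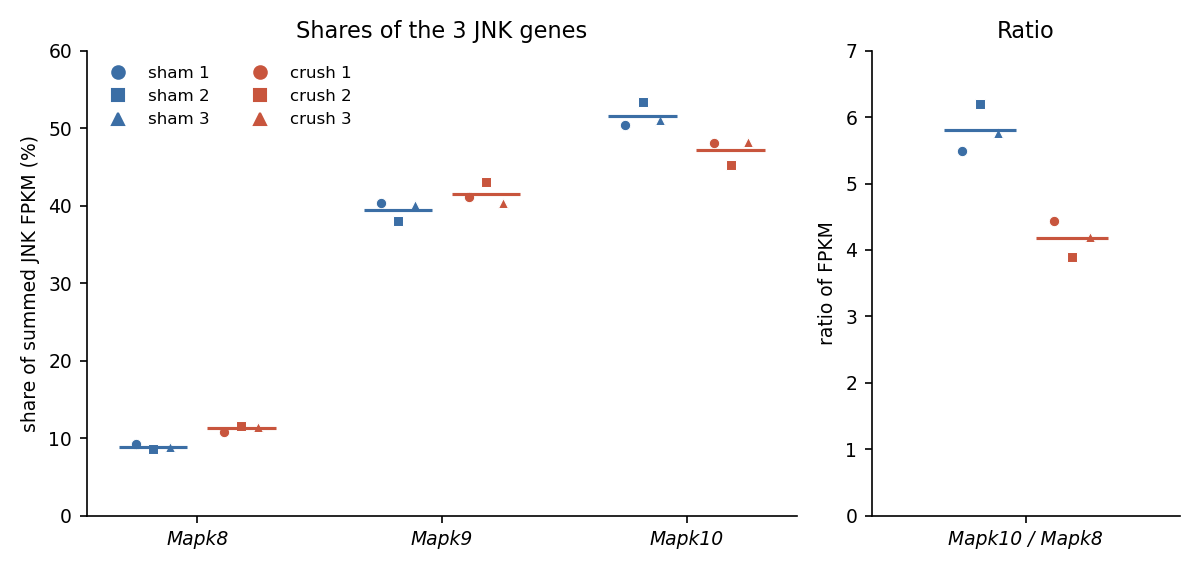
Left, share of each JNK gene in the summed FPKM of Mapk8, Mapk9 and Mapk10 in each library, in percent. Right, ratio of Mapk10 to Mapk8 FPKM in each library. Points are libraries, lines are group means, and both axes start at 0. The crush libraries lie below the sham libraries for Mapk10 (48.2% at most against 50.4% at least) and above them for Mapk8.

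Each JNK gene has a pair of mutually exclusive exons of 72 bases in the kinase domain, of which a transcript carries the upstream or the downstream one, a choice known to alter which substrates the kinase binds best. They are shown because the isoforms of each gene fall into 2 classes by this exon. The sequences are those of GENCODE transcripts (GRCm38), matched to the authors' mm9 exons by the lengths of the exon and of the introns around it, and read 5′ to 3′ on the strand of the gene. Capitals mark the bases that differ between the upstream and the downstream exon of the same gene.
Mapk8 upstream exon: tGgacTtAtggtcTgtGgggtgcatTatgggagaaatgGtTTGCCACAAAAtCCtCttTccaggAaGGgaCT
Mapk8 downstream exon: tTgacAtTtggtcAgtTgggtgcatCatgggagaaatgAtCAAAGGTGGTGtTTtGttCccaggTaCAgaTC
Mapk9 upstream exon: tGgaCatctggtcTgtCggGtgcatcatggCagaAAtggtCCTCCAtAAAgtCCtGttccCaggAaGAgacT
Mapk9 downstream exon: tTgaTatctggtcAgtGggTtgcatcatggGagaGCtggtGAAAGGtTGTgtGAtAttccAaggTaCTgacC
Mapk10 upstream exon: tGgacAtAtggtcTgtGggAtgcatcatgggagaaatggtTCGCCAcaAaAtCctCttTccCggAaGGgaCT
Mapk10 downstream exon: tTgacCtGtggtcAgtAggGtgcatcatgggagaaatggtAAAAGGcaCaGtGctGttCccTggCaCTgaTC

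These exons lie, in the same order, at chr14:33390673-33390744 and chr14:33390242-33390313 (minus strand), chr11:49873836-49873907 and chr11:49874264-49874335 (plus strand), and chr5:102987203-102987274 and chr5:102976355-102976426 (minus strand) in GRCm38. The exons of a pair differ at 27 of 72 bases in Mapk8, 25 in Mapk9 and 23 in Mapk10. Between genes, the upstream exons of Mapk8 and Mapk10 are 93.1% identical and those of Mapk9 and the other genes 81.9% and 83.3%, whereas the downstream exons are 75.0% to 80.6% identical.

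The JNK genes differed in which exon they carried. Transcripts with the downstream exon made up 69.0% ± 1.33 (SD, n = 3) of the Mapk9 FPKM that spans the pair in sham and 63.8% ± 4.52 (SD, n = 3) in crush libraries. For Mapk8 the share was 50.9% ± 3.16 (SD, n = 3) and 41.8% ± 5.23 (SD, n = 3), and for Mapk10 15.8% ± 1.60 (SD, n = 3) and 13.0% ± 0.976 (SD, n = 3). In each of the 6 libraries the downstream share was highest in Mapk9 and lowest in Mapk10. Between crush and sham, the groups overlapped for Mapk8 (53.8%, 51.5% and 47.5% in sham, 37.4%, 40.5% and 47.6% in crush) and Mapk9. For Mapk10 they did not (17.7%, 14.8% and 15.02% against 12.0%, 13.1% and 14.0%), with an exact permutation p of 0.1 and 0.4 after adjustment over the 12 isoform features compared. All 3 group differences were negative. These features were chosen after the exon structures had been seen, and the authors' program split reads between isoforms that share nearly all of their bases.

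The last exon of all 3 JNK genes has a pair of start sites 5 bases apart. The added bases, which are not a multiple of 3 and so shift the reading frame, are in capitals in the opening of the long form of each last exon (GRCm38, strand of the gene).
Mapk8 last exon: CACAGgtgcagcaatgatcaatggctctca
Mapk9 last exon: CACAGatgcagcagtaagtagcaaggctac
Mapk10 last exon: CACAGgtgcagcagtgaacagcagtgagag

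The same 5 bases are added in each gene, and this choice is known to distinguish the shorter from the longer JNK proteins. Long form and long end, here and below, refer to the added bases of the exon and not to the length of the protein. The form with the added bases made up 74.9% ± 4.23 (SD, n = 3) of Mapk8 FPKM in sham and 74.9% ± 1.44 (SD, n = 3) in crush libraries, and 47.8% ± 2.52 (SD, n = 3) and 47.7% ± 1.14 (SD, n = 3) of Mapk10. For Mapk9 it made up 46.7%, 42.9% and 45.2% in sham and 42.5%, 41.6% and 40.8% in crush libraries, which did not overlap (exact permutation p = 0.1, adjusted over the features 0.4). The long form here includes Mapk9 j5, an assembled isoform of 3 exons that begins downstream of the exclusive pair. It held 29.3% of the gene, at 19.7, 13.9 and 18.9 FPKM in sham and 15.5, 14.0 and 12.5 FPKM in crush libraries. The Mapk9 share and its gap between groups therefore rest in large part on j5, and the share without it was not tested. Mapk10 also has an internal exon of 99 or 72 bases, and the longer form made up 72.2% ± 4.32 (SD, n = 3) and 72.03% ± 0.762 (SD, n = 3).

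At the level of isoforms, 36 of the 59 had a mean of at least 1 FPKM, and none of them passed (limma, adjusted p under 0.05), where 15 of 24485 isoforms tested did, or 0.0613%. At an unadjusted p under 0.05 there were 5 of 36, against 9.12% of all isoforms tested. Of the 36, 6 had all crush libraries below all sham libraries and 2 had all above, together 8, while 17.0% of all isoforms tested did not overlap. The isoform with the smallest adjusted p was Mapk10 j7, which carries the downstream exon: it was at 11.4, 9.52 and 10.0 FPKM in sham and 6.11, 5.85 and 7.45 FPKM in crush libraries (log2 change -0.60, SE 0.12, limma adjusted p = 0.199). The most abundant Mapk10 isoform, j6, which holds 45.7% of the gene, was at 35.02, 30.2 and 36.1 against 28.6, 24.7 and 26.0 FPKM (log2 change -0.34, adjusted p = 0.392). For Mapk8, a reference isoform with the upstream exon and the long end was at 2.34, 3.06 and 3.60 FPKM in sham and 5.13, 4.99 and 3.75 FPKM in crush libraries (log2 change 0.49, adjusted p = 0.452), whereas Mapk8 j1, the isoform with the downstream exon, was at 7.46, 5.69 and 6.24 against 5.32, 5.65 and 6.48 FPKM (-0.13, adjusted p = 0.860). With library quality weights 6 of the 36 passed, in a fit in which 1355 of the 24485 isoforms tested did. In the authors' deposited table, 5 of the 59 isoforms have a test status of OK, 53 of FAIL and 1 of NOTEST, and the smallest q among them is 0.354.

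The JNK kinases also have alternative exons of a length that is a multiple of 3, shown here with the whole exon in capitals (GRCm38, strand of the gene).
Map2k4 cassette exon: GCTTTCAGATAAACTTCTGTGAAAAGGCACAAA
Map2k7 cassette exon: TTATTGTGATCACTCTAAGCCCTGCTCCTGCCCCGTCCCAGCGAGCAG

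The Map2k4 exon of 33 bases (chr11:65775733-65775765) was in 14.4% ± 0.819 (SD, n = 3) of the FPKM of isoforms that span it in sham and 10.8% ± 3.40 (SD, n = 3) in crush libraries. The Map2k7 exon of 48 bases (chr8:4240688-4240735) was in most transcripts, 80.0% ± 5.22 (SD, n = 3) in sham and 74.9% ± 2.13 (SD, n = 3) in crush libraries, and both groups overlapped for both exons. A short Map2k4 isoform of 4 exons, j4, was at 7.44, 14.3 and 8.91 FPKM in sham and 4.70, 5.07 and 5.85 FPKM in crush libraries, without overlap (log2 change -0.81, SE 0.23, limma adjusted p = 0.347), while the main reference isoform, with 55.2% of the gene, was at 37.3, 25.7 and 35.5 against 32.4, 33.2 and 29.3 FPKM (-0.04, adjusted p = 0.972). Sham 2 was highest for the first and lowest for the second.

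Mapk8ip1 (JIP1; chr2:92219372-92241350, minus strand, mm9), a scaffold that binds DLK, MKK7 and JNK and the kinesin motor, was at 163, 176 and 165 FPKM in sham and 159, 151 and 162 FPKM in crush libraries. All crush values lay below all sham values, by less than 1 FPKM at the nearest pair (162.6 in sham 1 and 161.7 in crush 3), with a log2 change of -0.10 (SE 0.07, 95% interval -0.27 to 0.07, limma adjusted p = 0.554), and -0.062 without sham 2. Its isoforms begin at either of a pair of distant start regions. Those with the upstream start made up 33.2%, 37.0% and 29.1% of the gene in sham and 37.7%, 41.1% and 41.2% in crush libraries, which did not overlap (difference 6.91 percentage points, exact permutation p = 0.1, adjusted over the features 0.4).

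Mapk8ip1 was also the 1 gene of the 8 with at least 2 tested isoforms whose isoforms differed in their change (limma diffSplice F test, adjusted p = 0.0291), where 35 of 6746 genes passed, or 0.519%. The isoform with the largest estimate, j5 from the downstream start, was at 17.7, 20.6 and 21.1 FPKM in sham and 10.4, 5.63 and 11.4 FPKM in crush libraries, without overlap (log2 change -1.08, SE 0.25, limma adjusted p = 0.249). The upstream-start isoform j1, with 34.8% of the gene, was at 51.0, 64.0 and 46.1 against 57.0, 59.0 and 62.0 FPKM (0.15, adjusted p = 0.833), and j2, with 46.8%, at 77.8, 78.0 and 83.0 against 75.4, 69.8 and 72.2 FPKM (-0.13, adjusted p = 0.693). The diffSplice call was lost when any library was left out, and in simulated data this test made many false calls. In addition, 69.0% of the exon bases of all Mapk8ip1 isoforms together are shared with Pex16 on the opposite strand (11.2 FPKM). Most of these exon bases belong to the reference isoform of 7546 bases, which held 7.47% of the level. The isoforms j1, j2 and j5 have 2170, 2249 and 2268 bases, and their own part in the overlap was not computed.

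**Figure D3:**
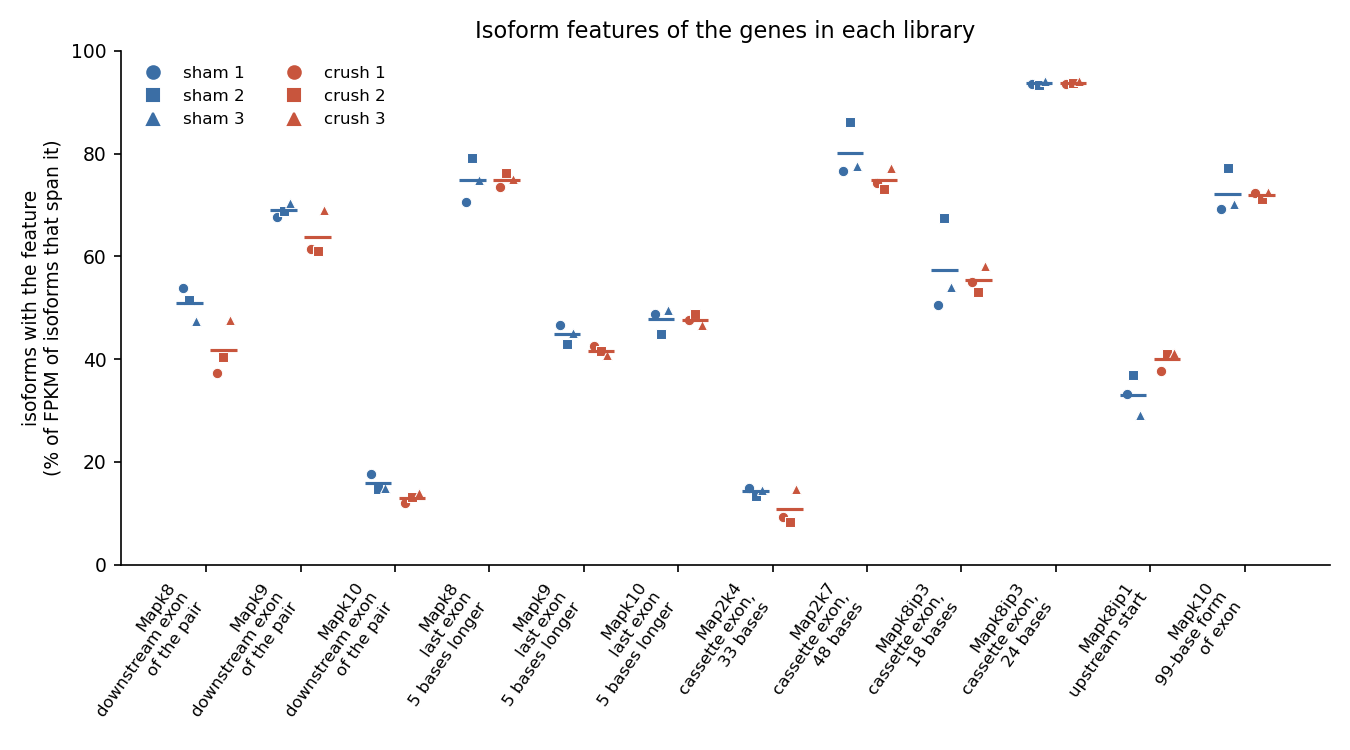
Share of FPKM from isoforms with each of 12 features, in percent of the FPKM of the isoforms that span it, in each library. Points are libraries and lines are group means. The downstream exon of the mutually exclusive pair is in most Mapk9 and few Mapk10 transcripts, and the groups do not overlap for 3 features: that exon in Mapk10, the longer last exon in Mapk9 and the upstream start of Mapk8ip1. The share of such features without overlap over all genes was not computed, so these 3 have no background beside them. The longer last exon of Mapk9 counts the isoform j5, which has 3 exons.

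Mapk8ip3 (JIP3; chr17:25029889-25075272, minus strand, mm9), a scaffold that links JNK and DLK to axonal transport in both directions, was the member with the estimate nearest 0. It was at 110, 101 and 109 FPKM in sham and 109, 104 and 106 FPKM in crush libraries (log2 change -0.003, SE 0.07, 95% interval -0.16 to 0.16, limma adjusted p = 0.988). The sign of this estimate turned under 5 of 16 alternatives, all within 0.06 of 0. Its cassette exon of 24 bases was in 93.7% ± 0.374 (SD, n = 3) and 93.8% ± 0.287 (SD, n = 3) of the transcripts that span it, and that of 18 bases in 57.3% ± 8.95 (SD, n = 3) and 55.4% ± 2.56 (SD, n = 3), with sham 2 alone at 67.5%. On the opposite strand Spsb3 (10.2 FPKM) shares 54.2% of its exon bases.

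Nmnat2 (chr1:154801955-154968063, plus strand, mm9), the labile NAD-making enzyme of axons, is represented under its own name by 1 isoform. It was at 4.98, 1.64 and 4.23 FPKM in sham and 4.74, 4.04 and 2.86 FPKM in crush libraries. Sham 2 was the lowest of the 6, and its interval in the authors' files (1.13 to 2.14 FPKM) lay apart from that of sham 1 (3.73 to 6.22 FPKM). The log2 change was 0.15 with an SE of 0.31 (95% interval -0.60 to 0.89, limma adjusted p = 0.865), which leaves room for a change of either sign. Without sham 2 the estimate was -0.22 (adjusted p = 0.466).

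The name covers only part of the locus. Isoforms under the name mKIAA0479 lie on the same strand in the same Cufflinks locus. They share 79.5% of the exon bases of Nmnat2, and these bases are 97.7% of their own. They were at 28.96, 28.2 and 30.1 FPKM in sham and 24.8, 27.6 and 27.1 FPKM in crush libraries, so that 11.9% of the summed level stood under the name Nmnat2. With both names counted, the locus was at 33.9, 29.9 and 34.3 FPKM in sham and 29.6, 31.6 and 29.99 FPKM in crush libraries, a narrower spread relative to its level than under the gene's own name. The log2 change of this sum was -0.10 (SE 0.08, 95% interval -0.28 to 0.08, limma adjusted p = 0.566), opposite in sign to that of the Nmnat2 row. This sum was added after the values had been seen. It would place the locus between Mapk9 and Map3k12 in the order of levels, apart from both.

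Sarm1 (chr11:78283812-78311299, minus strand, mm9), whose product breaks down NAD in injured axons, was at 9.38, 7.36 and 9.20 FPKM in sham and 9.72, 9.77 and 9.50 FPKM in crush libraries. All crush values lay above all sham values, but the nearest differed by little, and sham 2 was again lowest (log2 change 0.15, SE 0.10, 95% interval -0.08 to 0.38, limma adjusted p = 0.486). Without sham 2 the estimate was 0.051 (adjusted p = 0.610). Its reference isoform held 99.6% of the level, and 55.04% of its exon bases are shared with Slc46a1 on the opposite strand (1.97 FPKM).

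The balance of Sarm1 to Nmnat2 within a library was 1.88, 4.50 and 2.18 in sham and 2.05, 2.42 and 3.32 in crush libraries, so sham 2 gave the widest departure and the groups overlapped (log2 ratio of Nmnat2 to Sarm1 higher by 0.05 in crush, exact permutation p = 0.9). With mKIAA0479 counted as Nmnat2, the locus was 3.62, 4.06 and 3.73 times Sarm1 in sham and 3.04, 3.24 and 3.16 times Sarm1 in crush libraries. On that count the groups did not overlap, and the difference of the log2 ratio was -0.27 (exact permutation p = 0.1, the smallest possible). Over all 6 libraries, the direction of the Nmnat2 to Sarm1 ratio therefore depends on which names are counted as Nmnat2. Under the gene's own name it also depends on sham 2, without which the difference of the log2 ratio was -0.33. That name holds 11.9% of the summed level of the locus, and 97.7% of the exon bases of mKIAA0479 are shared with Nmnat2.

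**Figure D4:**
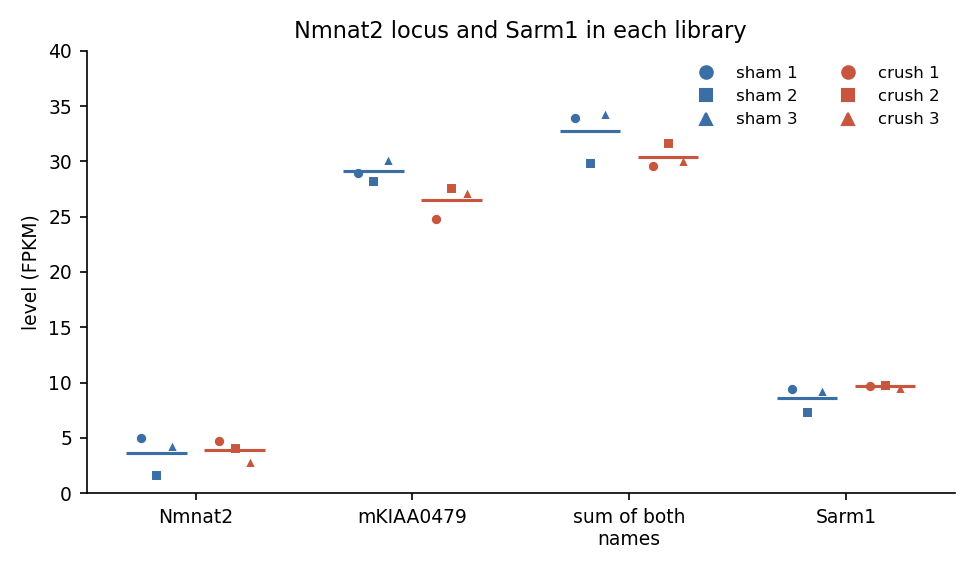
Level of Nmnat2, of the isoforms named mKIAA0479 in the same locus, of their sum, and of Sarm1 in each library, in FPKM on an axis that starts at 0. Points are libraries and lines are group means. Sham 2 is the lowest library for Nmnat2 (1.64 FPKM) and for Sarm1 (7.36 FPKM), and the sum is between 29.6 and 34.3 FPKM in all 6.

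Around these members, 46 of 52 other listed genes of the pathway were found and 43 tested; the other 6 are not analysed here. Of the 43, 2 rose and none fell (limma, adjusted p under 0.05), where 2.38% of all genes tested rose and 1.39% fell. At an unadjusted p under 0.05 there were 12 of 43, beside 17.6% of all genes tested. The median log2 change of the list was 0.0002, beside -0.02 for all genes tested.

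Among the 10 upstream kinases tested, 1 rose. Tnik (chr3:28157176-28575023, plus strand, mm9), which belongs with Map4k4 and Mink1 to the family of MAP4 kinases that act above DLK, was at 9.16, 7.98 and 8.81 FPKM in sham and 17.4, 16.4 and 16.2 FPKM in crush libraries. The groups were far apart relative to their spread, and the crush mean was 1.93 times the sham mean (log2 change 0.88, SE 0.07, adjusted p = 0.00509). The assembled isoform j1 held 85.6% of the gene at 7.65, 7.10 and 7.24 against 14.8, 13.9 and 14.4 FPKM (log2 change 0.88, adjusted p = 0.0534 over all isoforms), and on the reference isoform alone the estimate was 0.42 (adjusted p = 0.385). The relatives did not pass: Map4k4, chosen after its values were seen, was at 25.4, 23.8 and 28.1 against 34.5, 31.3 and 31.1 FPKM (log2 change 0.32, adjusted p = 0.102), and Mink1 had an estimate of -0.10. Of the mixed-lineage and other MAP3 kinases on the list, such as Map3k13 (the closest relative of DLK; 3.00 FPKM in sham and 2.58 FPKM in crush), none passed.

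Among the nuclear targets, 2 of 7 were found. Atf3, a stress-induced transcription factor downstream of JNK, rose from 50.9, 64.6 and 36.1 FPKM in sham to 166, 153 and 196 FPKM in crush libraries (log2 change 1.77, SE 0.21, adjusted p = 0.0106). Its call did not hold with crush 1, crush 2 or crush 3 left out (adjusted p = 0.0679, 0.0506 and 0.0533), with log2 changes of 1.79, 1.85 and 1.68, or on the reference isoforms alone (1.68, adjusted p = 0.0759). Atf2, which is activated by phosphorylation, had an estimate of 0.03.

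In the other roles none passed. They were the 3 other scaffolds, the 5 tested genes of the p38 branch, the 6 dual-specificity phosphatases of MAP kinases, the 5 genes of DLK turnover and palmitoylation, and the 12 tested genes of NAD metabolism and Wallerian degeneration. Mycbp2, the ubiquitin ligase gene whose relatives restrain DLK in worms and flies, was at 53.8 ± 2.81 (SD, n = 3) in sham and 53.7 ± 1.60 FPKM (SD, n = 3) in crush libraries. Of the 43 genes tested, 19 had groups that did not overlap (12 with crush above and 7 below), beside 26.3% of all genes tested. Those named next did not pass, and their values were known when they were picked. The p38 alpha gene Mapk14 was at 21.2, 21.5 and 20.8 against 25.8, 25.4 and 27.04 FPKM (log2 change 0.29, limma adjusted p = 0.0504). Other genes of the p38 branch had estimates below 0, among them Mapk12 (-0.43, adjusted p = 0.178) and the kinase gene Map2k6 (-0.29, adjusted p = 0.111), and the median of the 5 tested was -0.17. Stmn2, an axonal microtubule regulator with a short-lived protein, was at 763, 841 and 728 against 1047, 991 and 1209 FPKM (0.47, adjusted p = 0.0834), and the nuclear NAD enzyme gene Nmnat1 at 3.07, 2.57 and 2.85 against 2.21, 2.26 and 2.28 FPKM (-0.23, adjusted p = 0.178). The NAD-degrading enzyme gene Cd38, which immune cells also express, was at 0.627, 0.333 and 1.56 against 2.24, 2.01 and 1.70 FPKM (0.75, adjusted p = 0.153). Macrophage markers were higher in the same libraries, as given above, and their part in the Cd38 values was not tested.

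**Figure D5:**
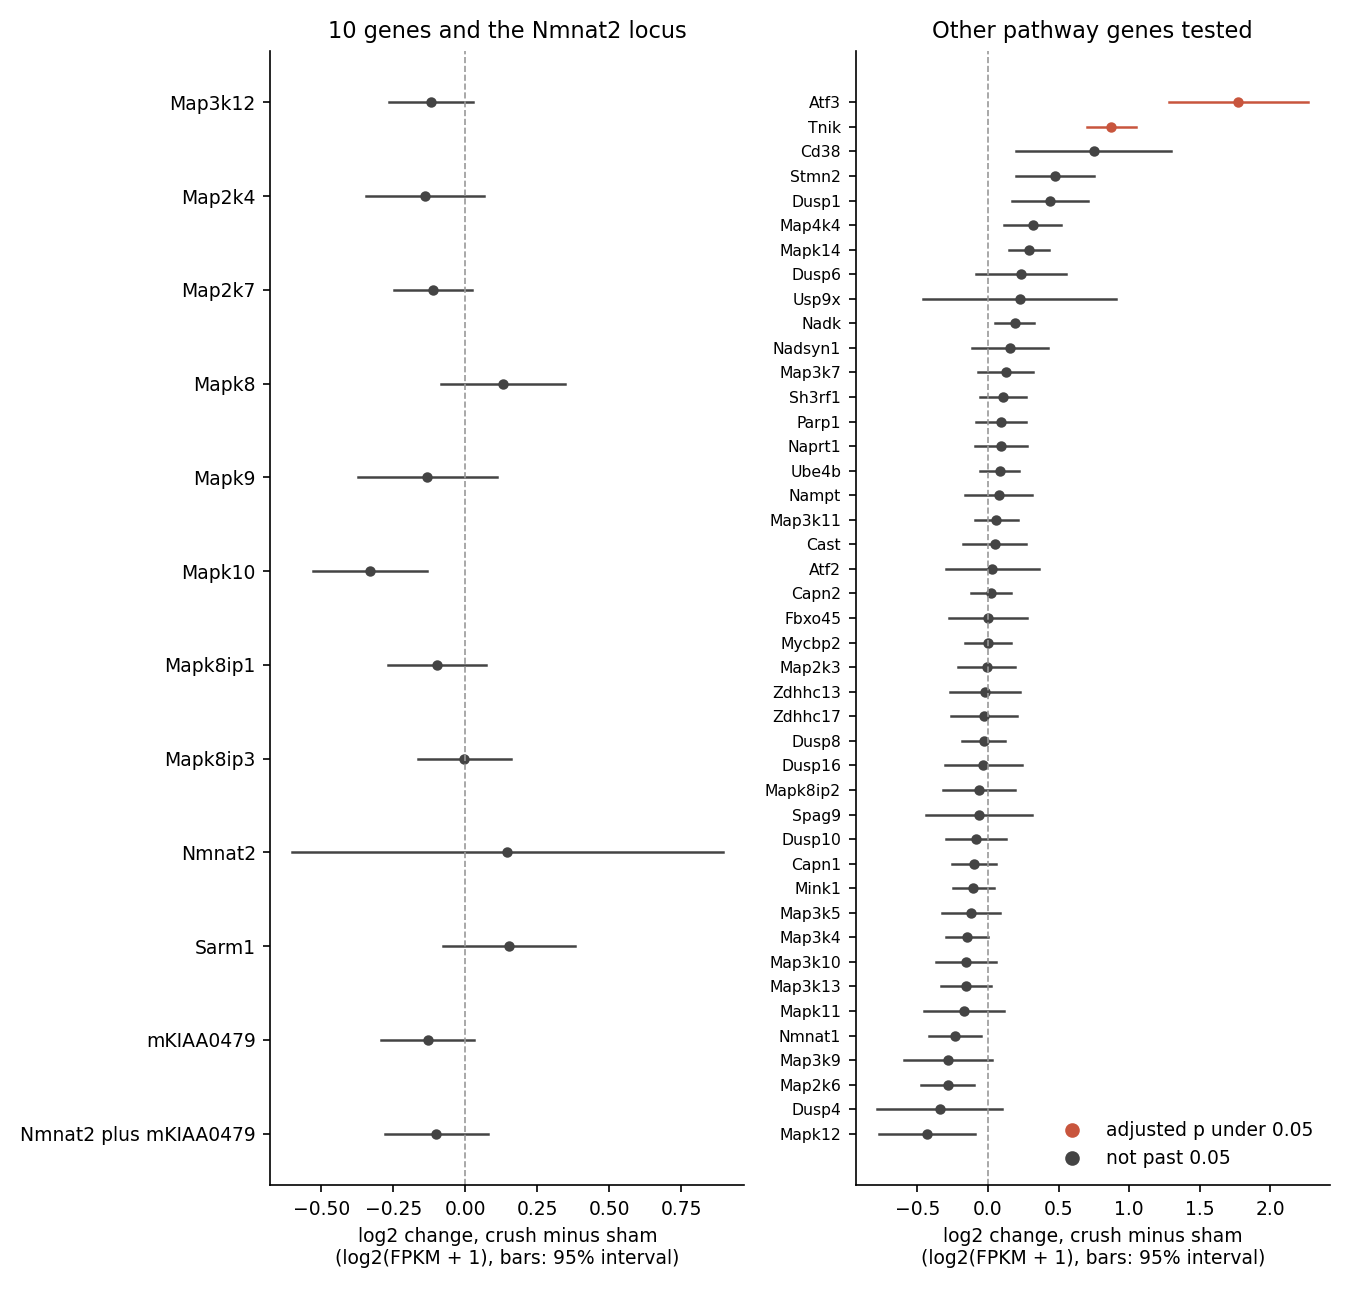
Log2 change from sham to crush of the 10 genes with the Nmnat2 locus (left) and of the 43 other pathway genes tested (right), on the scale of log2(FPKM + 1), with 95% intervals from limma as bars; the axes differ in range. Red marks an adjusted p under 0.05. The interval of Mapk10 is the only one of the 10 that does not reach 0, its adjusted p is 0.0901, and Atf3 and Tnik are the genes marked on the right.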

How the data were processed

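The authors deposited 1 table of isoforms with an FPKM value and its interval per library, and their own p-values and q-values; per the submitters' processing notes it was made with TopHat 1.3.2, Cufflinks 1.1.0 and Cuffdiff 1.2.1 on mm9. Per the labels' protocols, poly-A RNA was selected, 500 ng of RNA entered each preparation, and barcoded libraries were mixed and run on 3 lanes. Quantification status was read from the deposited table. The other columns of the table, the LOG2 fold change of the authors among them, were copied only.

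FPKM were summed by gene name. Features whose 6 libraries averaged 1 FPKM or more were tested with limma 3.58.1 (R 4.3.3) on log2(FPKM + 1), with a mean-variance trend, no covariate, 2-sided tests and Benjamini-Hochberg adjustment over all features, at 0.05. The pseudocount of 1 understates changes of low genes. Isoform differences used limma's diffSplice. Ratios and shares within a library used 2-sided exact permutation over libraries. The fits were tested on simulated data. Depth is unknown, so no counting interval was given. Alternatives were a pseudocount of 0.1, no filter, a filter at 5 FPKM, upper-quartile and quantile scaling, no trend, library quality weights, a replicate block, reference isoforms only, isoforms of status OK only, and leaving out each library.

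The members and lists were chosen with earlier results of these data known. Named are all 10 members, their isoforms holding at least 10% of a gene or called, the called genes of the pathway list, and the 3 genes most like Map3k12 by Pearson r; isoforms of at least 10% that are not described singly did not pass. Exon sequences came from GENCODE M21 (GRCm38). Other genes were named after their values were seen, and this is said beside them or they are given as neighbours on the genome.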

Additional observations from a re-analysis of the deposited data

How the results depend on the processing

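Of 157 alternative estimates for the 10 genes, 145 kept the sign and the side of the threshold, 9 had the other sign and 3 passed. Those that passed were Mapk10 with library quality weights (-0.35) and without sham 2 (-0.38), and Map2k4 without sham 2 (-0.22). Those with the other sign were Map3k12 on reference isoforms (0.026), Mapk8ip3 under upper-quartile (0.040) and quantile (0.050) scaling and without sham 1, sham 3 or crush 2 (-0.044 to 0.020 over the libraries left out), and Nmnat2 with weights (-0.066), without sham 2 (-0.22) and with mKIAA0479 counted (-0.10). The number of members called was 1 with weights and 0 to 2 over the libraries left out. Weights gave sham 2 0.162 and crush 1 2.86.

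The number of genes called was 464, and it was 295 above 5 FPKM, 1429 with weights, 67 on reference isoforms and 53 to 1174 over the libraries left out. Isoforms called were 15, and 7 without a filter, 30 with upper-quartile and 42 with quantile scaling, 1355 with weights (6 of them of members), 34 at status OK and 0 to 45 over the libraries left out. Member genes with an isoform difference were 1, and 0 at a pseudocount of 0.1 or above 5 FPKM, 4 with weights and 0 when any library was left out. The share of all genes with an isoform difference under weights is not given here, so those 4 have no background beside them. Of the pathway list 2 rose, and 4 with upper-quartile or quantile scaling, 7 with weights (2 fell), 0 on reference isoforms and 1 to 4 over the libraries left out (0 to 1 fell). With weights, 11.6% of all genes tested passed in either direction.

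Deviations of libraries with the same replicate number had correlations of 0.37, -0.31 and -0.49. As deviations from means of only 3 libraries, they cannot settle whether the replicate numbers pair the libraries. With a replicate block 50 genes, 0 isoforms, 0 member genes with an isoform difference and 1 pathway gene that rose, Tnik, were called, Atf3 had an adjusted p of 0.0659, and the exact p of the Mapk10 share was 0.25, the smallest that sign changes of 3 pairs allow. Without a block that p was 0.1. No other call on a member differed under the block.

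The crush-minus-sham difference in the log2 ratio of Nmnat2 to Sarm1 was -0.33 without sham 2, -0.10 without crush 1 and -0.27 with mKIAA0479 counted, over a range of -0.33 to 0.30 with each library left out. That in the log2 ratio of Map2k7 to Map2k4 was -0.017 to 0.10 over the libraries left out, below 0 without sham 1, sham 3 or crush 2.

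Of the isoform features, the sign turned with some library left out for the longer last exon of Mapk8 (-2.07 to 2.16 points) and of Mapk10 (-1.56 to 0.801), the Mapk8ip3 exons of 18 bases (-5.38 to 3.10) and 24 bases (-0.0452 to 0.324), and the 99-base exon of Mapk10 (-1.67 to 2.33). The cause of these differences was not tested.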
